A study of Homo sapiens with 17 samples.

Results

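The 271 baited HindIII fragments that had 40 or more distinct contacts on their own chromosome in naive or primed human pluripotent stem cells (PSCs) are described here. They were 1.70% of the 15982 baited fragments in the promoter-capture Hi-C (PCHi-C) contact lists. A contact is a pair of fragments given a CHiCAGO score of 5 or more by the study, and a pair captured from both ends was counted once for each bait. The members were chosen by their numbers of contacts in these lists. All counts, distances and state differences of contacts below are therefore descriptions without a test. Only H3K4me1, which played no part in the choice, is tested.

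All cells were of H9, an established human embryonic stem cell line, in its NK2 derivative. The study kept isogenic naive PSCs in t2iL with a protein kinase C inhibitor, and primed PSCs in TeSR-E8, both without feeder cells. These resemble the embryo shortly before and after implantation. Culture medium and pluripotent state therefore cannot be told apart. PCHi-C, which enriches Hi-C ligation products at promoters, gave 1 list per cell type from 2 replicates combined by the study, so contact numbers have no replicate error. H3K4me1, a histone mark of enhancers and of the flanks of promoters, was profiled by CUT&RUN, which cuts DNA beside bound antibody. There were 2 libraries of naive and 3 of primed PSCs, with 6.74 to 26.6 M reads by the size of 1 read in the values. Nothing in the labels shows that the libraries of 1 cell type came from separate cultures, so p-values measure only the spread between these libraries. The primed Hi-C map, from the same DNA as the primed capture, held 44820314 contacts within chromosomes between 100 kb bins. Among baited promoters of naive marker genes, H3K4me1 was higher in naive PSCs at 5 of 7 and higher in primed PSCs at 0. Among 12 tested primed marker promoters, 4 were higher in primed and 1 in naive PSCs.

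A promoter can touch distant DNA in several known ways. Enhancers are brought to promoters over many kilobases, mostly within domains bounded by CTCF and cohesin. Polycomb group proteins hold the silent, CpG-rich promoters of developmental transcription factors close to each other over far longer distances. Gene clusters such as those of the histones and the protocadherins also gather into compact assemblies.

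The promoter sequences of 4 fragments on which the account of distant contacts turns are shown first. EN2, MNX1 and NKX2-3 encode homeobox transcription factors, and H1-5 encodes a linker histone. Each sequence is the 200 bases before a RefSeq transcript start in GRCh38.p14, 5′ to 3′ on the strand of the gene, with CG dinucleotides in capitals. EN2 lies at chr7:155457929-155458128 (plus strand), MNX1 at chr7:157010664-157010863 (minus strand), NKX2-3 at chr10:99532742-99532941 (plus strand) and H1-5 at chr6:27867589-27867788 (minus strand).

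EN2: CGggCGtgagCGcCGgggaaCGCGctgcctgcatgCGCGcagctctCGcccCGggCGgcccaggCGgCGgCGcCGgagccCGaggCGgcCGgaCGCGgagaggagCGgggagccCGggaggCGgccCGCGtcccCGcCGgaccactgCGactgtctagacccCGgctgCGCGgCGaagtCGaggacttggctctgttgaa
MNX1: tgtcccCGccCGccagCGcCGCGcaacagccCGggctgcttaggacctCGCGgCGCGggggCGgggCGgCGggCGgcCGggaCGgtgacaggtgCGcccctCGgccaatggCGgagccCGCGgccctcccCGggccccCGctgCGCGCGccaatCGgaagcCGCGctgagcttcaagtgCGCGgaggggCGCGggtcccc
NKX2-3: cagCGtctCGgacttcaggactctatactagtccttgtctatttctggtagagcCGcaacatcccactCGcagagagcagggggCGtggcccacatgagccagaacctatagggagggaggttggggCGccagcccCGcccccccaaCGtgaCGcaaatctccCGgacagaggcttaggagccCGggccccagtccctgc
H1-5: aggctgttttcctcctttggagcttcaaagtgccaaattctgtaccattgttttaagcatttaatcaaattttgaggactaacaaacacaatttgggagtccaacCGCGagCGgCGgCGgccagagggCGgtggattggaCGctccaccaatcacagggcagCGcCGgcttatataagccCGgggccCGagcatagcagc

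The EN2 and MNX1 windows each held 33 CpGs, and the NKX2-3 and H1-5 windows each held 11. Another RefSeq start of MNX1 on the same fragment had a window with 20. Over all 35116 RefSeq promoter windows of this length the median was 9, over those on baited fragments it was 15, and over the 223 windows on the highly connected fragments it was 14. Windows on highly connected fragments with 10 or more primed contacts over 1 Mb had a median of 16 and a maximum of 33. The EN2 and MNX1 windows were thus at the top of that set. The letters TATAAA, between 50 and 11 bases before the start on the strand of the gene, were not in the H1-5 window but were in 5 of the 6 histone windows on these fragments. Of all windows 2.53% held them.

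Of the 271 fragments, 204 carried the promoter of a protein-coding gene in GENCODE release 44, 26 carried only long non-coding RNA starts, 20 carried other starts and 21 carried none. For those without a coding start the nearest coding gene is given as a landmark. They lay in 182 separate loci, joining fragments within 1 Mb, on 22 chromosomes, so they were not independent of each other. Chromosome 5 held 40, chromosome 2 held 27 and chromosome 6 held 23. Fragment length did not set them apart in the medians, at 5777 bp against 6314 bp for other baited fragments, nor did GC content (44.98% against 46.63%) or the number of baits within 500 kb (8 in both).

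Primed PSCs held more of these highly connected fragments. The limit was reached by 115 in naive PSCs and by 222 in primed PSCs, with 66 reaching it in both. The medians were 35 naive and 45 primed contacts, against 3 and 3 for other baited fragments. Of the 271, 192 had more contacts in primed PSCs, 77 had more in naive PSCs and 2 had equal numbers. At least 2-fold more were seen at 90 in primed and at 16 in naive PSCs. Among all 4166 baited fragments with 10 or more contacts in a list, 29.4% had at least 2-fold more in primed and 18.1% in naive PSCs. The same contrast chose the members, so nothing is read from that background. In total they had 9268 naive and 12814 primed contacts, of which 6513 were common, or 70.3% of the naive and 50.8% of the primed contacts.

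**Figure D1:**
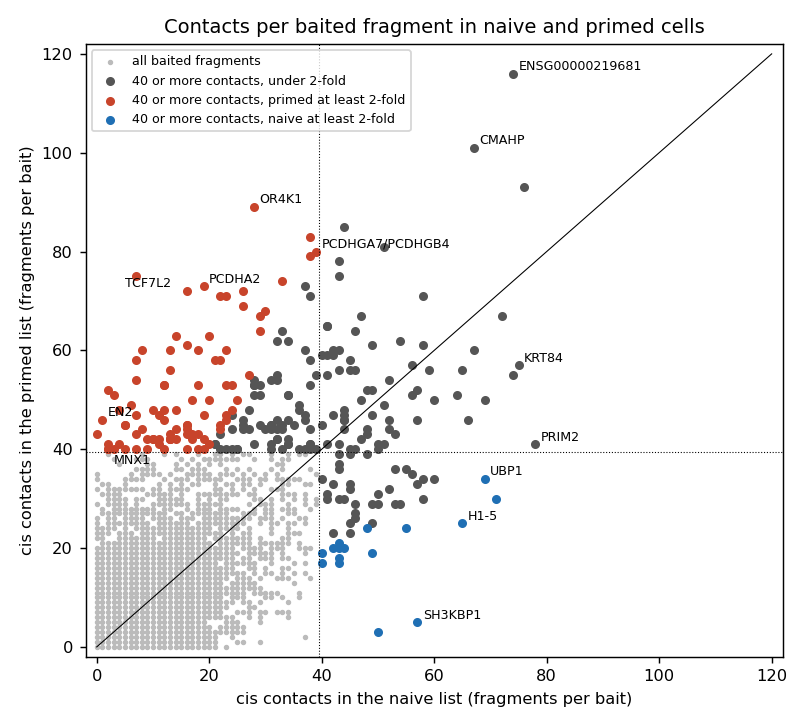
Number of distinct contacts on the same chromosome in naive (x axis) and primed PSCs (y axis) of every baited fragment (small grey points) and of the 271 highly connected ones (large points, red or blue where the numbers differed at least 2-fold), with dotted lines at the limit. More of the large points lie above the solid line of equal numbers (192) than below it (77).

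The numbers near the limit show how fine the cut was. MYCN, a growth-driving transcription factor, had 40 naive and 19 primed contacts, and EPHA6, an ephrin receptor, had 2 and 40. Just outside were JUN, an AP-1 subunit, with 36 and 39, and TFAP2B, a neural crest factor, with 21 and 39. In all, 24 fragments had exactly 40 contacts in their better state and 23 stood at 39. Called contacts also came in runs of neighbouring fragments. In the better state the contacts of a fragment fell into a median of 18 runs, with a range of 7 to 37, so 40 contacts were not 40 separate sites. Few contacts led to another bait. Of the contacts called only in primed PSCs 9.86% ended on a baited fragment, of those called only in naive PSCs 10.9% and of the common ones 11.8%. For other baited fragments the shares were 17.9%, 23.3% and 26.2%. The 271 fragments contacted 12161 fragments, of which 1798 (14.8%) were contacted by more than 1 of them.

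Well-known regulators of pluripotency were not among the highly connected fragments. None of 9 baited pluripotency regulators, 7 naive markers, 14 primed markers or 25 Polycomb subunits reached the limit. Only 1.70% of all baited fragments did, so in lists of this size that is no result about these genes. In naive PSCs the most contacts were those of PRIM2, the large primase subunit, with 78 naive and 41 primed contacts. KRT84, a hair keratin, had 75 and 57, and the histone fragment H2AC12;H2BC12 had 74 and 55. In primed PSCs the lead was taken by ENSG00000219681 near CARMIL1, with 74 naive and 116 primed contacts, and by CMAHP, a pseudogene of a sialic acid hydroxylase, with 67 and 101. Next were the fragment nearest to OR4K17 at chr14:20114982-20118055, with 76 and 93, and OR4K1, an olfactory receptor gene, with 28 and 89.

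The largest rises from naive to primed PSCs were at genes of several kinds. The fragment nearest to TBCA at chr5:77842181-77853015 rose most in number, from 7 to 75 contacts, and OR4K1 came next. TCF7L2, a transcription factor of Wnt signalling, went from 16 to 72, TOPBP1, a DNA replication checkpoint protein, from 8 to 60, and OTP, a hypothalamic homeobox factor, from 23 to 71. The largest falls were at SH3KBP1, an adaptor in receptor endocytosis, from 57 to 5, and near MAMLD1 at chrX:150486324-150493659, from 50 to 3. Both of these fragments are on the X chromosome, which held 4 highly connected fragments. The others on X rose, SOX3 from 30 to 44 contacts and the fragment nearest to ENSG00000230707 from 23 to 47. PRIM2 fell by 37 contacts, UBP1, a transcription factor, went from 69 to 34 and H1-5 from 65 to 25.

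Gene clusters supplied the densest shared sets. Of 32 baited fragments with clustered protocadherin promoters, which encode the adhesion molecules that give neurons their surface identity, 16 reached the limit. They had 382 naive and 913 primed contacts, all 16 had more in primed PSCs, and 10 had at least 2-fold more. PCDHGA7;PCDHGB4 had 39 and 80, PCDHA2 19 and 73, and PCDHB7;PCDHB8 7 and 58. Of the naive contacts of the cluster 88.2% were also in the primed list, but only 36.9% of the primed contacts were in the naive list. They drew on few targets: 143 fragments were contacted, 121 of them by more than 1 bait, within a stretch of baits spanning 633 kb. The fragments chr5:141085886-141086400 and chr5:141130690-141146770 were each contacted by 17 of the 271, the most of any.

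Protocadherin promoters are known to share a conserved element, and 3 are shown because their fragments belonged to this set and their windows held the same 9 letters, GCGCCGCTG, in capitals. The letters were chosen after the sequences were seen and were searched on both strands. PCDHGA7 lies at chr5:141382542-141382741, PCDHGB1 at chr5:141349899-141350098 and PCDHGA8 at chr5:141392433-141392632, all on the plus strand.

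PCDHGA7: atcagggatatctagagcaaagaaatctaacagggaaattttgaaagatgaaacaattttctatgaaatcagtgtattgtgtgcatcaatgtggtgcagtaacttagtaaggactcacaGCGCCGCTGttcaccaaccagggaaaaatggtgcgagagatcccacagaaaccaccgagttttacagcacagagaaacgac
PCDHGB1: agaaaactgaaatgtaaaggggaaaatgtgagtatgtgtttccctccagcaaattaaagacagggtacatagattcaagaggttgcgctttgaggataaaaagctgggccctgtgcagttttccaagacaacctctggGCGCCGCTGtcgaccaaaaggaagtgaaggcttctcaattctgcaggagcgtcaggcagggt
PCDHGA8: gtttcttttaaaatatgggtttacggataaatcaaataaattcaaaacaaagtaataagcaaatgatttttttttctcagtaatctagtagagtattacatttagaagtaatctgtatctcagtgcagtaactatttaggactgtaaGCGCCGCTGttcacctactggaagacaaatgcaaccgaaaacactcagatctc

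The letters were in 9 of 25 protocadherin windows on these fragments (36%), in 9 of the 223 windows on all highly connected fragments (4.04%) and in 298 of all 35116 windows (0.849%). Windows of clustered protocadherin genes on other fragments held them in 1 of 18 (5.56%). PCDHGB1 had a further window on the same fragment without the letters. The protocadherin windows held a median of 5 CpGs. This is a description of letters and says nothing of binding.

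The histone genes of chromosome 6 went the other way. Of 49 baited fragments with a histone promoter 5 reached the limit, with 290 naive and 160 primed contacts, and none had more in primed PSCs. Of the naive contacts 44.5% were also primed, whereas 80.6% of the primed contacts were also naive. H1-5 had 44 naive and 7 primed contacts over 1 Mb, H2BC13;H2BC14;H3C10 had 33 and 10, H4C12 had 31 and 10, and H3C11;H4C13 had 30 and 3. The H1-5 contacts over 1 Mb fell, but for 1 naive contact near TRIM27, in chr6:26016454-26288615, the histone gene cluster 1.72 Mb away. Up to 1 Mb H3C11;H4C13 had 1 more contact in primed than in naive PSCs, so its fall was in the distant contacts.

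Another set lay in the olfactory receptor cluster of chromosome 14, where 7 fragments between chr14:19875379-20199998 had 292 naive and 548 primed contacts. Of their 110 contacted fragments, 100 were contacted by more than 1 of the 7. Over all chromosomes 7 of 196 baited fragments with an olfactory receptor promoter reached the limit. Homeobox genes outside the HOX clusters had 9 of 149 baited fragments, with 130 naive and 465 primed contacts. The HOX clusters had 2 of 40 baited fragments, with HOXC6;HOXC8;HOXC9 at 42 naive and 33 primed contacts, and the ligand families had 3 of 56. Zinc finger genes had 1 of 307 and ribosomal proteins 1 of 81. Over all baited fragments the share was 1.70%.

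Distances of the contacts were longer in primed PSCs. The median distance was 306 kb in naive and 350 kb in primed PSCs, and for other baited fragments 228 kb and 296 kb. Contacts over 1 Mb made up 323 of 9268 in naive PSCs, or 3.49% (Wilson 95% interval 3.13 to 3.88%), and 1096 of 12814 in primed PSCs, or 8.55% (8.08 to 9.05%). For other baited fragments the shares were 1.63% and 6.46%. The intervals cover counting error only, and contacts of neighbouring fragments are not independent. Over 5 Mb there were 140 primed contacts and 1 naive contact. These rested on few reads, with a median of 4 per primed contact and 4 of 140 with 10 or more, against medians of 27 reads up to 1 Mb and 13 between 1 and 5 Mb.

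**Figure D2:**
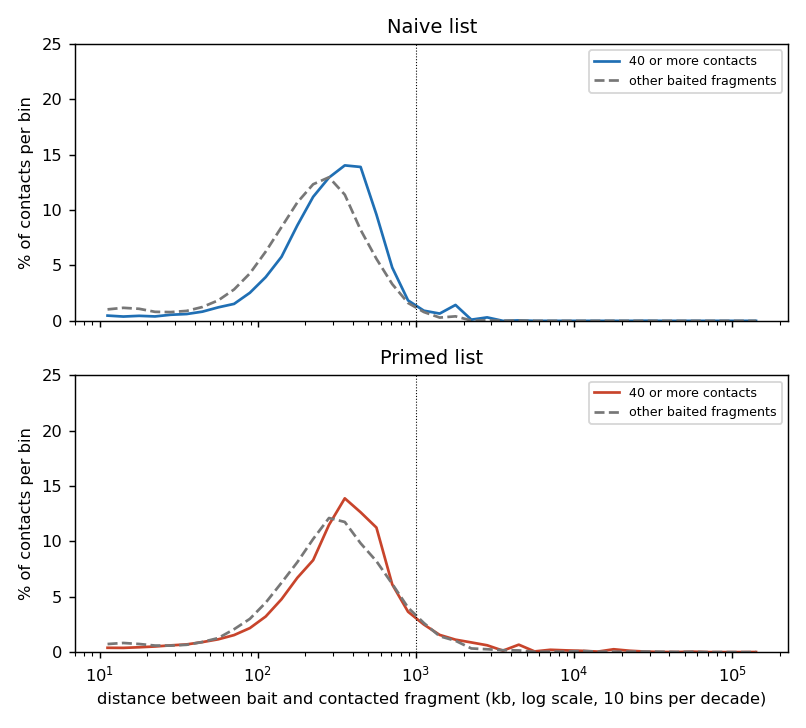
Percent of contacts in each bin of distance (kb, log scale) for the 271 highly connected fragments (solid lines) and the other baited fragments (dashed lines) in naive (upper panel) and primed PSCs (lower panel), with a dotted line at 1 Mb. Between 100 and 500 kb lay 70.3% of the naive and 60.9% of the primed contacts of the 271 fragments, and between 500 kb and 1 Mb 16.4% and 21.1%.

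The distant contacts were held by few fragments. In primed PSCs 36 fragments had 10 or more contacts over 1 Mb, and in naive PSCs 11. Of the 36, 10 (27.8%) carried the promoter of a developmental transcription factor (homeobox, HOX, forkhead, SOX, T-box, GATA, ZIC or bHLH), against 17 of all 271 (6.27%) and 317 of all 15982 baited fragments (1.98%). These 10 had 151 naive and 536 primed contacts, 94 of them common. They were chosen by their primed contacts over 1 Mb, which favours primed contacts, so nothing is read from that difference. They include adjoining fragments of the same gene and are not all independent.

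**Figure D3:**
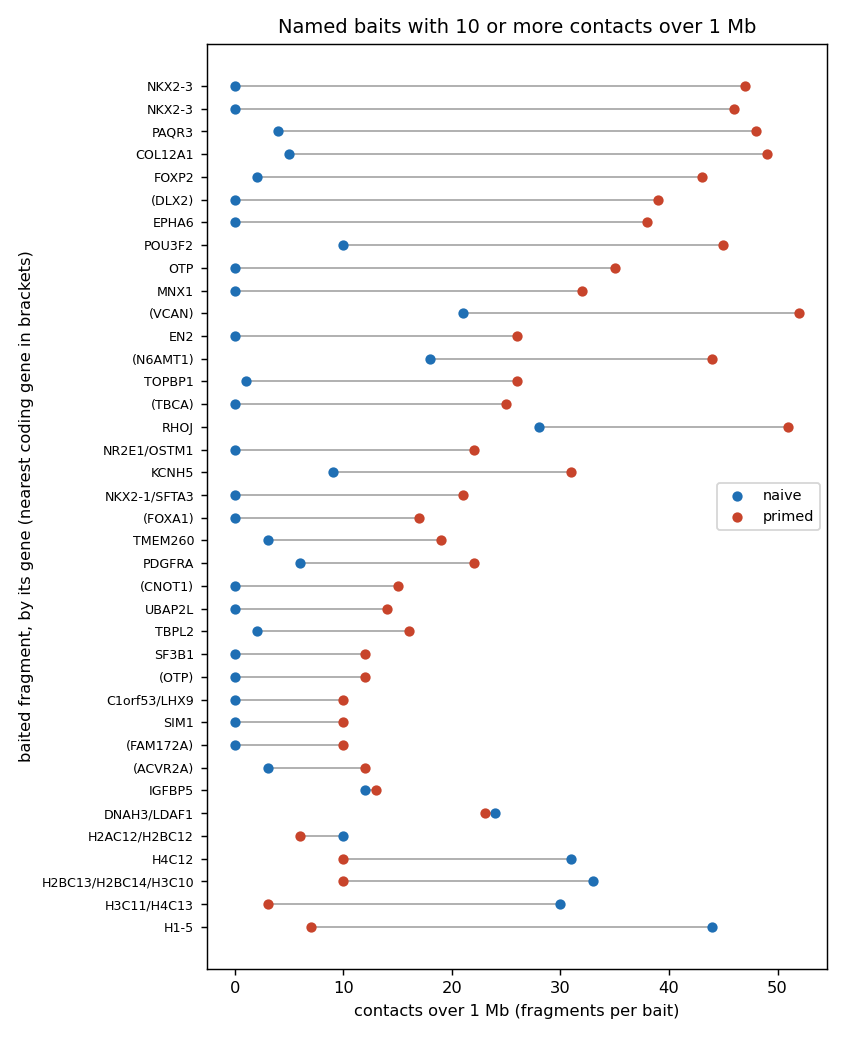
Number of contacts over 1 Mb in naive (blue) and primed PSCs (red) for the named highly connected fragments with 10 or more in a state, sorted by the difference, with the nearest coding gene in brackets where the fragment carries no coding start. Histone fragments have more in naive PSCs (H1-5, 44 against 7), and the homeobox fragments have more in primed PSCs (MNX1, 32 against 0).

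Some fragments with homeobox promoters, such as those of EN2, MNX1 and NKX2-3, contacted regions that hold other homeobox genes. The distant regions of OTP and POU3F2 held coding starts, but none of a homeobox gene. How often distant regions in general hold homeobox genes was not counted. A region joins nearby distant contacted fragments, so its contacts need not lie on the promoters named. EN2, a midbrain and cerebellum factor, had 1 naive and 46 primed contacts. Of the primed ones 13 reached chr7:156991765-157142306, which holds the starts of MNX1 and UBE3C. A further 11 reached chr7:157566221-157698371, which holds no coding start. MNX1, a motor neuron factor, had 2 naive and 40 primed contacts. Of these primed ones 27 reached the EN2 and CNPY1 region and 4 reached that of SHH, the gene of a signalling ligand. A single contact joined MNX1 to UNCX, another homeobox gene, 156 Mb away at the other end of chromosome 7.

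NKX2-3, a gut and spleen factor, was carried by 2 adjoining fragments with 2 and 3 naive and 52 and 51 primed contacts. Over 1 Mb they had 46 and 47 primed contacts and none in naive PSCs. The fragment at chr10:99532472-99538467 had 22 contacts with the PAX2 region and 13 with the region of KAZALD1 and TLX1. It had 5 with that of VAX1 at 17.6 Mb and 5 with that of EMX2 at 18.01 Mb. Of these genes, PAX2, TLX1, VAX1 and EMX2 encode developmental transcription factors, and KAZALD1 does not.

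OTP had 35 primed contacts over 1 Mb and none in naive PSCs, in 9 regions. Of these contacts, 9 reached the region of FOXD1 at 4.20 Mb and 4 that of NR2F1 at 15.96 Mb. Another 12 fell in a region with no coding start at chr5:73222847-73310455. NKX2-1, a lung, thyroid and forebrain factor, had 20 naive and 63 primed contacts, 11 of the primed ones with the region of FOXA1 and TTC6. NR2E1, a neural stem cell receptor, had 8 with the region of PRDM13, 5 with that of SIM1 and 2 with that of TFAP2D at 57.4 Mb. The fragment of the non-coding gene ENSG00000289413, nearest to DLX2, had 22 with the HOXD cluster at 4.04 Mb. That last fragment went from 19 contacts to 47 in all, but had 11 fewer in primed than in naive PSCs within 1 Mb.

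Not all distant contacts led to promoters. The 39 fragments with 10 or more in either state reached 124 regions, 71 of which held a coding start. 8 fragments reached no coding start at all. FOXP2, a forkhead factor of speech circuits, had 2 naive and 43 primed contacts over 1 Mb, 39 of the primed ones in chr7:115690153-115942648. EPHA6 had 0 and 38, and VCAN-AS1, antisense to a matrix proteoglycan gene, had 21 and 52. POU3F2, a neural POU factor, had 10 and 45, of which 40 primed ones lay in 1 block of chr6:97434706-97726112. PAQR3, a Golgi protein, had 4 and 48, with 39 in the region of FGF5 and PRDM8, and COL12A1, a fibril-associated collagen, had 5 and 49 in the region of CD109. Genes of general cell functions were also present: SF3B1, a splicing factor, had 0 and 12 and TOPBP1 had 1 and 26.

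Contacts over 1 Mb stood above the expected level in the primed Hi-C map, which is not an independent experiment. Their median observed over expected value was 6.40 (quartiles 4.28 and 10.2), with 57 Hi-C contacts observed against 9.58 expected from distance and coverage in the median, and 99.0% lay above 1. For other baited fragments the median was 4.75. The contacts fell in only 224 pairs of bins, so many shared a value. With each pair counted once the medians were 5.29 and 3.59. For the 140 contacts over 5 Mb the median was 12.5, in 51 pairs of bins with a median of only 6.5 observed Hi-C contacts, and for those of other baited fragments it was 17.9. Contacts called only in naive PSCs also had a high value, 11.4, in this primed map, but 2.29 when the expected value came from distance alone. With each of their 33 pairs of bins counted once it was 5.55. Among the fragments of developmental factors the medians were 17.2 for EN2, 10.1 for MNX1, 6.29 for both NKX2-3 fragments and 6.08 for OTP. They were 5.10 for FOXP2, 4.78 for LHX9, 4.52 for SIM1, 3.28 for NKX2-1 and 2.76 for POU3F2, the lowest, with single contacts down to 0.511 for POU3F2 and 0 for OTP.

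H3K4me1 at the highly connected fragments themselves moved in both directions. Values are log2 RPM (reads scaled to library size) per 500 bp tile, averaged over the tiles of a fragment, and differences are primed minus naive. Of the 271 fragments 171 passed the filter on low values. By limma with Benjamini-Hochberg adjustment over 147715 fragments, 33 (19.3%) were higher in naive and 20 (11.7%) were higher in primed PSCs. Of all fragments tested 25.6% were higher in naive and 26.7% in primed PSCs, and of the 10615 baited fragments tested 25.4% and 10.2%. The median difference was -0.24, against -0.29 for baited and 0.02 for all fragments. The counts rested on few libraries. Without naive replicate 1 they were 20 and 11, and without naive replicate 2 or without primed replicate 3 the naive count was 20 in both cases.

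Fragments that gained contacts held calls in both directions. Of the 54 tested fragments with at least 2-fold more primed contacts, 10 (18.5%) were higher in naive and 8 (14.8%) in primed PSCs. Of the 12 tested fragments with at least 2-fold more naive contacts, 1 (8.33%) was higher in each. Of 16 tested fragments with a developmental transcription factor, 1 (6.25%) was higher in naive and 2 (12.5%) in primed PSCs. The shares over all baited fragments tested were 25.4% and 10.2%, and nothing is read from these small counts.

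**Figure D4:**
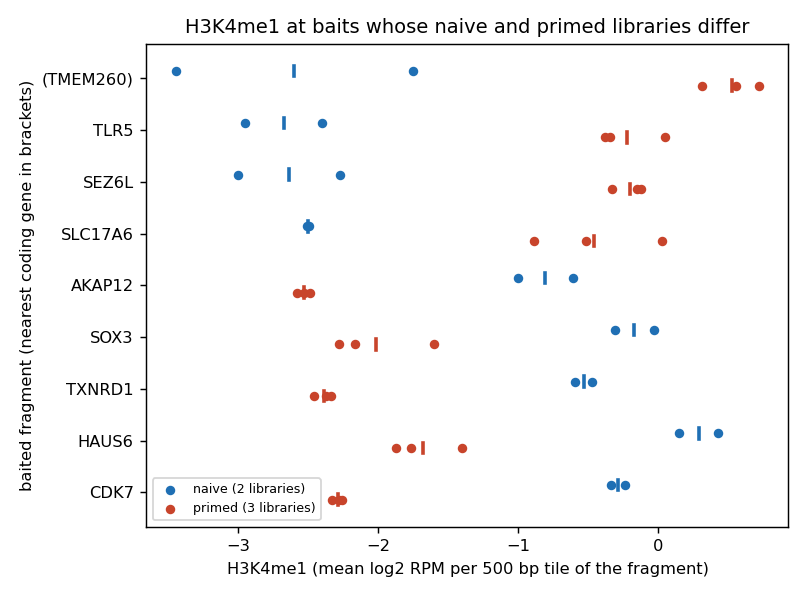
H3K4me1 in each library, as log2 RPM per 500 bp tile, at named highly connected fragments with the largest tested differences in each direction, with 1 point per library and a bar at the mean, and the nearest coding gene in brackets where the fragment carries no coding start. They run from ENSG00000258428 (difference 3.13) to CDK7 (difference -1.997). Naive and primed libraries do not overlap at any of them because this was a condition of the choice.

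The largest differences in each direction were taken among calls without overlap of libraries, so that separation adds no support. Rises in H3K4me1 are given first. TLR5, the receptor of bacterial flagellin, read -2.95 and -2.40 in the naive and 0.05, -0.34 and -0.38 in the primed libraries. All 3 primed libraries lay above both naive ones, and the difference was 2.45 ± 0.34 (SE, limma adjusted p = 7.79e-05), with 13 naive and 56 primed contacts. SEZ6L, a neuronal membrane protein, read -3.00 and -2.27 against -0.15, -0.33 and -0.12, again without overlap, with a difference of 2.44 ± 0.35 (adjusted p = 8.79e-05). SLC17A6, a vesicular glutamate transporter, differed by 2.04 ± 0.35 (adjusted p = 0.000339). A larger difference was seen at ENSG00000258428 near TMEM260, a short fragment whose contacts hardly moved. With 39 naive and 40 primed contacts, it read -3.45 and -1.75 against 0.31, 0.72 and 0.55. All primed libraries were above the naive ones, with a difference of 3.13 ± 0.46 (adjusted p = 0.000114).

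The largest fall was at CDK7, a kinase of the cell cycle and of transcription. It read -0.34 and -0.24 in the naive and -2.33, -2.28 and -2.26 in the primed libraries. The primed libraries all lay below the naive ones, and the difference was -1.997 ± 0.302 (adjusted p = 0.000133), although its contacts went from 41 to 65. HAUS6, a spindle protein, differed by -1.97 ± 0.35 (adjusted p = 0.000465), but by -1.02 with an adjusted p = 0.0599 when only tiles near transcript starts were used. TXNRD1, a thioredoxin reductase, differed by -1.85 ± 0.30 (adjusted p = 0.000197), and AKAP12, a kinase anchor, by -1.73 ± 0.30 (adjusted p = 0.000364). SOX3, a neural SOX factor with 30 naive and 44 primed contacts, read -0.03 and -0.31 against -2.17, -1.60 and -2.28. Its naive libraries were both above the primed ones, with a difference of -1.84 ± 0.34 (adjusted p = 0.000567). Of 6 tested protocadherin fragments 2 were higher in naive PSCs, with PCDHB2;PCDHB3 at a difference of -1.66 ± 0.32 (adjusted p = 0.000731). The share over all baited fragments tested was 25.4%, so nothing is read from 2 of 6.

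Among promoters with distant contacts the calls went in both directions. Of 27 tested fragments with 10 or more primed contacts over 1 Mb, 5 (18.5%) were higher in naive and 4 (14.8%) in primed PSCs. Over all baited fragments tested the shares were 25.4% and 10.2%. The 5 were TOPBP1 (difference -1.16), PAQR3 (-0.94), TBPL2 (-1.58) and the fragments nearest to TBCA (-0.97) and FAM172A (-1.32). All of these but TBPL2 lost the call under at least 1 alternative processing. EN2 read -1.002 and -0.723 in the naive and -0.09, -0.21 and -0.57 in the primed libraries, a difference of 0.57 ± 0.37 (adjusted p = 0.214). The groups did not overlap, but the adjusted p did not pass the threshold of 0.05. MNX1 read 0.37 and -0.03 against 0.45, 0.32 and -0.03, with groups that overlapped (adjusted p = 0.891). LHX9, a limb and forebrain factor with 56 naive and 51 primed contacts, read -2.17 and -2.10 against -0.19, -0.36 and -0.60, without overlap, and rose by 1.75 ± 0.34 (adjusted p = 0.000732). The 2 NKX2-3 fragments differed by -0.93 ± 0.42 and -0.04 ± 0.38 (adjusted p = 0.0789 and 0.938). POU3F2 rose by 1.20 ± 0.38 (adjusted p = 0.0174), but its adjusted p without each of naive replicates 1 and 2 and primed replicate 3 was 0.110, 0.106 and 0.0566. None of the 5 histone fragments was called, with differences from -0.68 at H1-5 to 0.29 at H2AC12;H2BC12.

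At the contacted fragments the mark differed with the state in which a contact was called. Fragments in contacts called only in naive PSCs had a median difference of -0.44, and of 785 tested 33.4% were higher in naive and 13.1% in primed PSCs. Those in common contacts had a median of -0.24 (1528 tested, 27.1% and 18.3%), and those in contacts called only in primed PSCs a median of 0.07 (1287 tested, 22.6% and 26.3%). Over all fragments tested the median was 0.02, with 25.6% higher in naive and 26.7% in primed PSCs. The primed-only class of the highly connected fragments was thus near this background. For contacts of other baited fragments the medians were -0.46, -0.26 and -0.10, so this order was not particular to the highly connected ones. The classes are of contacts and overlap in fragments, since a fragment can be in a naive-only contact of 1 bait and a common contact of another. These fragments share baits and loci and are not replicates, and no test was made over them.

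**Figure D5:**
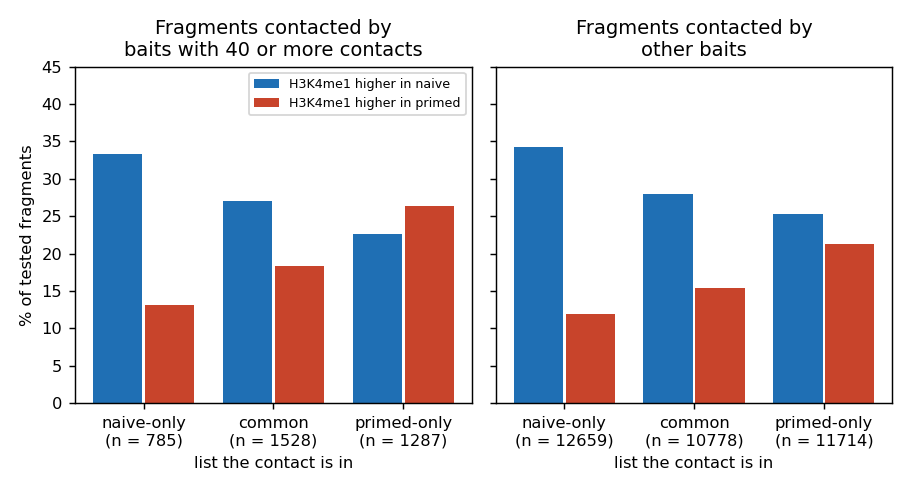
Bars give the percent of tested contacted fragments with H3K4me1 higher in naive or in primed PSCs, by the state in which the contact was called, for contacts of the highly connected and of the other baited fragments. The share higher in naive PSCs is 33.4% for naive-only and 22.6% for primed-only contacts of the highly connected fragments. Over all fragments tested it is 25.6%.

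The sets also differed from each other within a class. Fragments in primed-only contacts of the 10 developmental factors had a median difference of 0.57, and of 163 tested 56 were higher in primed and 9 in naive PSCs. Their common contacts had a higher median of 0.78 (17 tested, 7 and 3), and their naive-only contacts one of -0.06 (13 tested, 4 and 3). Fragments in naive-only contacts of the histone fragments had a median of -1.07, and of 52 tested 27 were higher in naive and 1 in primed PSCs. Their common contacts had a median of -0.82 (43 tested, 17 and 0) and their primed-only contacts one of -0.56 (14 tested, 5 and 0). The histone medians were thus below 0 in every class, whichever state the contact was called in. For the protocadherins 25 fragments in primed-only contacts were tested, and 7 were higher in naive and 2 in primed PSCs. The shares over all fragments tested were 25.6% higher in naive and 26.7% in primed PSCs. Many fragments of the histone and protocadherin sets were also in common contacts of another bait of the set. Of those contacted by the olfactory fragments of chromosome 14, no more than 3 in any class passed the filter on low values.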

How the data were processed

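The members and gene lists were chosen with earlier results of these data known. The authors combined 2 PCHi-C replicates per cell type, and the deposited lists hold CHiCAGO score and read count values per HindIII fragment pair, scaled and rounded. Contacts on the same chromosome were counted per baited fragment. Fragments were named from GENCODE release 44 promoters (1000 bp upstream of a start). The H3K4me1 tables deposited by the authors hold log2 RPM (reads scaled to library size) per 500 bp tile, with an empty tile set to 0.9 reads. Tile values were averaged per fragment, fragments with at least 1 tile above 0 in 2 or more libraries were kept, and limma 3.58.1 in R 4.3.3 (lmFit, eBayes with trend) was run on 2 naive and 3 primed libraries. The script was checked on simulated data. The deposited primed Hi-C counts were summed in 100 kb bins, with the expected value from distance and coverage. The genome build was GRCh38 per the labels. NANOG, SOX2 and input profiles and the naive Hi-C map were not used here. Some items that these rules name are not reported here.

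Named members were the 10 with most contacts in each state, the 10 with the largest change in each direction, the 5 with the largest tested H3K4me1 difference in each direction without overlap of libraries, the 10 with most contacts over 1 Mb, the richest member of each list and 4 fragments at the limit. EN2, MNX1, OTP, NKX2-1, NR2E1, LHX9 and the other genes of the distant contacts were chosen after their values were seen. Alternatives were other score, read, distance and contact limits, other scalings and filters of H3K4me1, and leaving out each library.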

Additional observations from a re-analysis of the deposited data

How the results depend on the processing

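The number of highly connected fragments follows the limits set. With scores of 7 or more 65 fragments reached 40 contacts (22 in naive, 53 in primed PSCs, and 28 of the 271 with at least 2-fold more in naive), and with 10 or more 8 did (1, 7 and 37). With neighbouring contacted fragments merged none did (0 in each state), and 4 of the 271 had at least 2-fold more in naive PSCs. With that merging, 163 of the 271 had more contacts in primed and 96 in naive PSCs. A limit of 30 gave 660 (330 naive, 519 primed, with more contacts in primed at 439 and in naive at 216, at least 2-fold at 213 and 50), and a limit of 50 gave 127 (48, 99, 88, 39, 38 and 6). The shares of contacts over 1 Mb in naive and primed PSCs were 5.12% and 10.7% with scores of 10 or more, 1.85% and 5.45% with 10 or more reads, and 2.82% and 9.85% with each contacted fragment once. They were 4.40% in naive PSCs for members with 50 or more contacts, 19.8% and 29.7% over 500 kb, and 0.475% and 3.36% over 2 Mb. The direction of the change in contacts turned for CCAR1 with neighbours merged (-7), for H3C11;H4C13 up to 1 Mb (1) and for ENSG00000289413 up to 1 Mb (-11).

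H3K4me1 counts of highly connected fragments were 12 higher in naive and 10 higher in primed PSCs with a filter at 1 and 18 higher in naive PSCs with tiles near transcript starts. Leaving out each library gave 20 to 38 and 11 to 20. The library numbers did not pair the libraries (correlations 0.082 and 0.098 over 2 pairs), and with a replicate block the naive count was 18. The median difference at fragments in naive-only contacts was -0.57 with contacts within 10 kb counted as common, and leaving out each library gave -0.52 to -0.38, -0.33 to -0.15 for common and -0.04 to 0.17 for primed-only contacts. Of 22 H3K4me1 calls among 54 named and tested members, 11 held under every alternative run and 11 were lost under at least 1. The cause was not tested. The depth of the capture libraries is not known from the lists.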
